A study of Mus musculus with 6 samples.

Results

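Protocadherins are the largest subgroup of the cadherin superfamily, single-pass membrane proteins with cadherin repeats outside the cell and a cytoplasmic tail unlike that of E-cadherin. The clustered protocadherins (alpha, beta and gamma) lie in tandem at 1 locus, where each first exon has a promoter of its own and is chosen through CTCF, cohesin and DNA methylation, and they give neurons a surface identity. The non-clustered members lie apart in the genome and are also found in epithelium, endothelium and the inner ear. The family was read here in EpRas cells, an EpH4 mouse mammary epithelial line that overexpresses oncogenic Ha-Ras, with and without long exposure to TGF-β1, a factor that drives the epithelial-mesenchymal transition (EMT).

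Members were all genes with a symbol that starts with Pcdh on a probe set with 1 gene symbol, and where a gene had more than 1 such probe set, the one highest on average over the 6 arrays stood for it. This gave 34 genes on 36 probe sets, of 18820 genes on 21218 probe sets with 1 symbol and 35556 probe sets in all. Of the 34 genes, 22 belong to the beta cluster (Pcdhb1 to Pcdhb22) and 12 are non-clustered (Pcdh1, Pcdh7, Pcdh8, Pcdh9, Pcdh10, Pcdh11x, Pcdh12, Pcdh15, Pcdh17, Pcdh18, Pcdh19 and Pcdh20). The alpha genes share 1 probe set that carries 14 protocadherin symbols and was read apart, and the gamma genes were not analysed here.

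Long-term EMT cells had received TGF-β1 at 2 ng/ml over 14 days, and control cells had been cultured for the same time without it. Each group had 3 arrays (MoGene-1_1-st-v1, a whole-transcript gene array), and both groups carry the Ha-Ras transgene. The line is of BALB/c origin, and the model is 1 cell line. The 3 samples of a group are described as triplicates, and whether they were independent cultures over the 14 days is not given. Each p-value therefore rests on variation among triplicates, and how much of that variation is technical is unknown.

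Values are log2 expression on each array. A background level of 4.48 was set as the 95th percentile of the mean values of 1006 olfactory receptor probe sets, genes that mammary cells are not known to use, and 33.3% of all probe sets lay at or below it in both groups. The array medians lay between 5.36 and 5.40. Control replicate 1 stood apart, with correlations of 0.987 and 0.984 to the other controls, against 0.995 between those 2, and for the members it moves most and for the marker sums the values are also given without it. Of 7 mammary epithelial markers, 3 did not pass: Krt8 averaged 12.79 in long-term EMT cells and 12.79 in control cells, Krt18 12.57 and 12.56, and Krt5 4.75 and 4.61. Epcam, Cdh1, Krt14 and Krt7 were lower in long-term EMT cells (limma, adjusted p between 0.00144 and 0.0144). The summed level of the 7 was 13.77 to 13.84 in long-term EMT cells and 14.16 to 14.4 in control cells on the log2 scale (14.16 to 14.18 without control replicate 1). Over 6 fits that each left out 1 array, Cdh1 and Krt7 passed in 6 and Epcam and Krt14 in 3. Cdh1 averaged 4.48 in long-term EMT cells, at the background level, against 9.57 in control cells. In bulk RNA, fewer cells of a type and less RNA per cell cannot be told apart.

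Upstream sequence is shown for Pcdh9 and Pcdh7, the members with the largest negative and the largest positive difference of those with sequence at hand. Each is the 250 bases before 1 annotated start in RefSeq (GRCm38.p6), 5′ to 3′ on the strand of the gene, with CG dinucleotides in capitals, for Pcdh9 from chr14:93890680-93890929 (minus strand) and for Pcdh7 from chr5:57717831-57718080 (plus strand). Both genes have annotation further upstream, so that each window is 1 of several possible starts.
Pcdh9: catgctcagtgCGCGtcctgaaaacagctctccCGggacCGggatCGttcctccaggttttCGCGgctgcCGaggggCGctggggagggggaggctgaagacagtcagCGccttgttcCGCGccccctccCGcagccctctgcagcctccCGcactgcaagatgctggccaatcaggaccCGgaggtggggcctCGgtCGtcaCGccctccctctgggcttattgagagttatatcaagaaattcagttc
Pcdh7: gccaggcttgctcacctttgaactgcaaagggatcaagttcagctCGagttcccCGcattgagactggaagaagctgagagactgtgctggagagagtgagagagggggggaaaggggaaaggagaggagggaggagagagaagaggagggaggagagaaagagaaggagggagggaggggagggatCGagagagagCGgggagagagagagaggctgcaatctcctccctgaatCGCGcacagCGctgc
The Pcdh9 window held 18 CG dinucleotides at a GC content of 63.6% and the Pcdh7 window 7 at 58.4%. Of 10 non-clustered members looked up, 9 had such a window (10 windows, since Pcdh9 has 2 that overlap), with a median of 17 CG dinucleotides, against 6 over all 32851 windows of the same length. The letters CACCTG, the E-box read by Zeb and Snail factors, occurred on either strand in 1 of these 10 windows (Pcdh15) and in 17.2% of all windows. TGANTCA, the AP-1 element, was in 0 of the 10 and in 6.75% of all windows, and GTCTAGAC, a palindromic Smad element, was in 0 of the 10 and in 0.167% of all windows. None of the 3 motifs contains another, and a match is a description of the sequence only.

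Many protocadherin genes were read at the background of the array. In both groups, 20 of the 34 genes had a mean at or below the background level (15 of the beta cluster and Pcdh8, Pcdh10, Pcdh11x, Pcdh15 and Pcdh20), and the highest mean among these was 4.41. With the 90th percentile as the background level this count was 17, and with the 99th it was 27. Above it lay 14 genes in long-term EMT cells and 12 in control cells, and these 12 were above it in both. The genes that made the difference were Pcdhb16 and Pcdhb18, whose means passed the background level in long-term EMT cells and stayed under it in control cells. A gene at background has no measured level, and a fold change there is compressed toward 0.

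**Figure D1:**
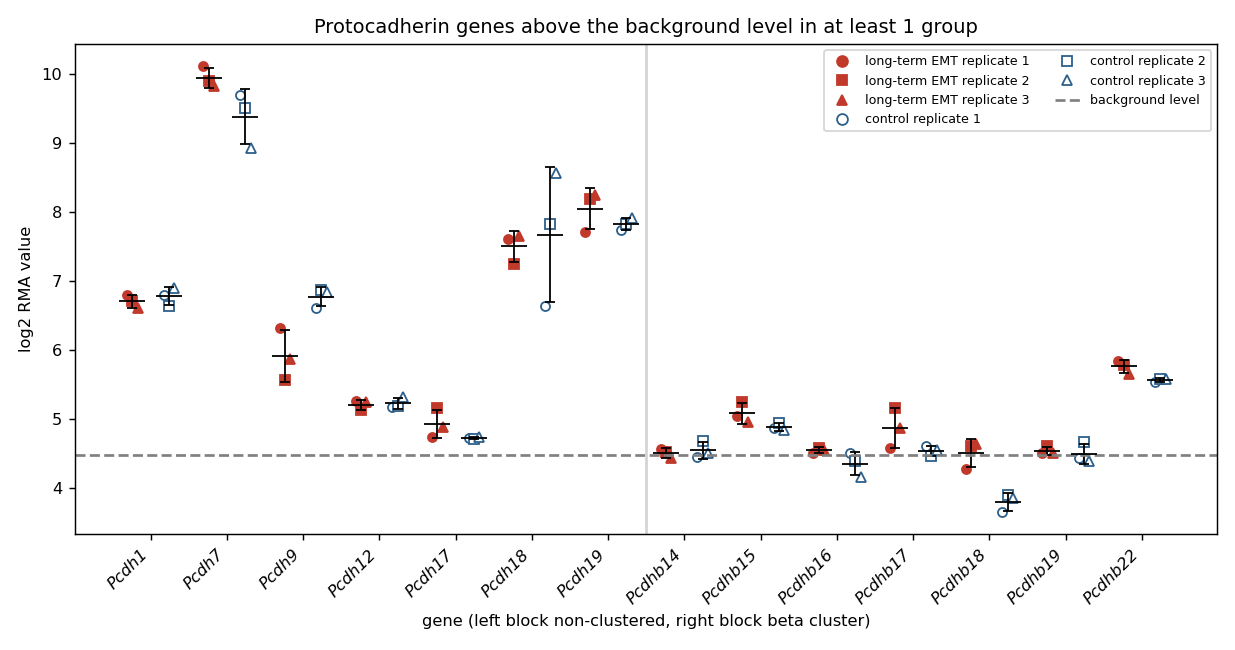
Log2 RMA value (y axis) on each array of the 14 protocadherin genes (x axis) above the background level of 4.48 (dashed line) in at least 1 group; filled symbols are long-term EMT, open symbols control, and bars are the mean ± SD (n = 3). Pcdh9, Pcdh7, Pcdhb15, Pcdhb18 and Pcdhb22 show groups that do not overlap, and Pcdh18 shows control values from 6.63 to 8.56. Levels of different genes are not to be ranked since probe sets bind with different strength.

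No member of the family passed the test. A gene was said to rise or fall where limma gave an adjusted p under 0.05 (Benjamini-Hochberg over all 35556 probe sets) and a fold above 1.5. Of the 34 genes, 0 rose and 0 fell, while of all probe sets 0.993% rose and 0.928% fell. At an adjusted p under 0.05 with any fold, 0 members passed, against 2.21% of all probe sets. At an unadjusted limma p under 0.05 with a fold above 1.5, 1 member was higher in long-term EMT cells (Pcdhb18, against 2.21% of all probe sets) and 1 lower (Pcdh9, against 2.57%). The study lists genes of both symbols on these same samples, so that their direction is not independent evidence. With any fold at that unadjusted p, 3 members were higher (Pcdhb18, Pcdhb22 and Pcdh7, against 7.3% of all probe sets) and 1 lower (Pcdh9, against 6.23%). The methods' t-test, read without adjustment and with a fold above 1.5, called Pcdhb18 higher and Pcdh9 lower, where it called 1.79% and 1.93% of all probe sets, and with adjustment it called 0 members.

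The median log2 fold change (long-term EMT minus control) was 0.04 over the 34 genes, 0.04 over the non-clustered genes and 0.02 over all probe sets. By sign, 20 genes were higher, 13 lower and 1 (Pcdhb9) had equal means, while 55.4% of all probe sets were higher and 43.7% lower. Of the 34 differences, 30 lay within 0.25 of 0, as did 77.6% of all probe sets, and the extremes were −0.85 (Pcdh9) and 0.71 (Pcdhb18). The 3 long-term EMT values lay wholly above the 3 control values for 7 genes (20.6% of members, against 10.5% of all probe sets) and wholly below them for 1 (2.94%, against 8.68%). Standard errors lay between 0.071 and 0.463. The 95% interval of the difference lay inside a 1.5-fold change in either direction for 27 of the 34 genes and inside a 2-fold change for 30 of them, many of these at background.

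**Figure D2:**
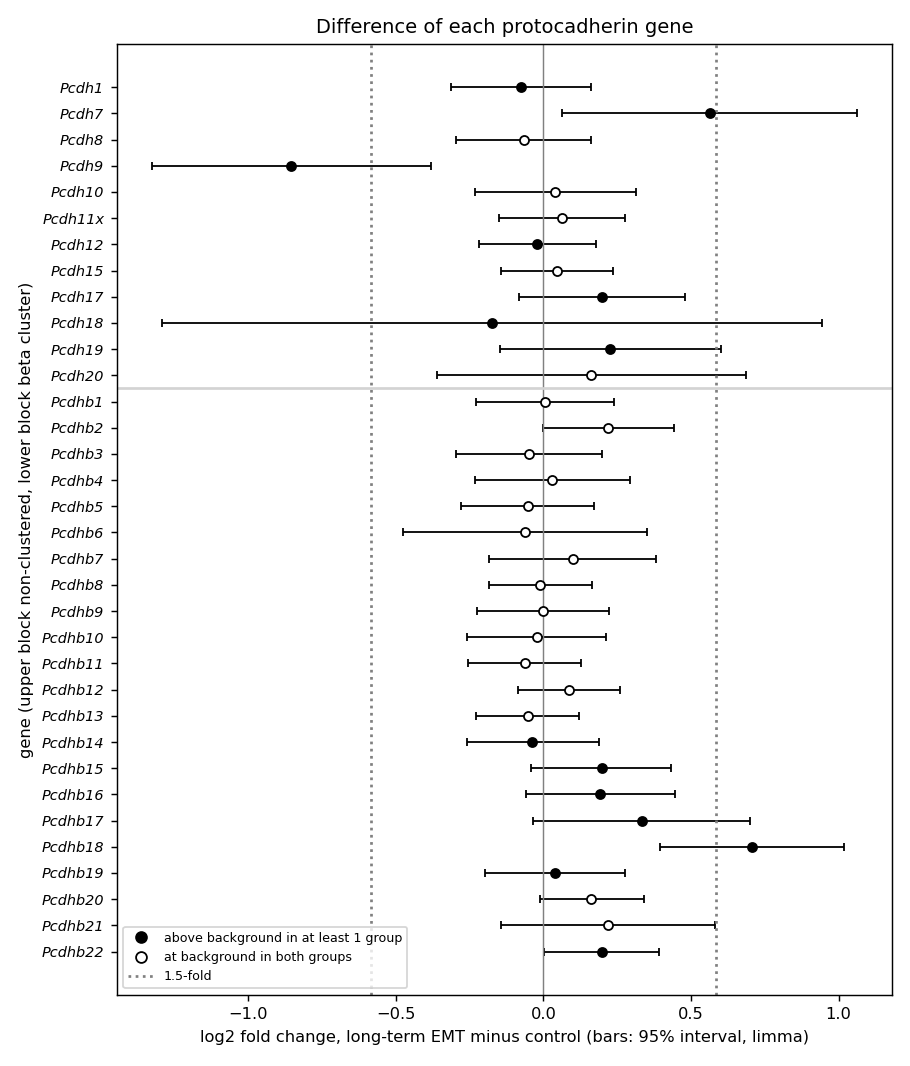
Log2 fold change (long-term EMT minus control, x axis) of each protocadherin gene (rows) with its 95% interval from limma and the 1.5-fold lines; filled points are genes above background in at least 1 group. The intervals of Pcdhb18 (0.40 to 1.02) and Pcdh9 (−1.33 to −0.38) lie clear of 0 before adjustment, and that of Pcdh18 is the widest of the family.

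The delta-1 protocadherins (Pcdh1, Pcdh7, Pcdh9 and Pcdh11x) have long ectodomains and a tail motif that binds protein phosphatase 1. Pcdh9, a homophilic adhesion protein of neurons that is lost in several human tumours, had values of 6.31, 5.56 and 5.87 in long-term EMT cells, against 6.61, 6.86 and 6.83 in control cells. All 3 long-term EMT values lay below all 3 control values, by a smaller margin for long-term EMT replicate 1. The difference was −0.85 (SE 0.20, 1.81-fold lower), and it did not pass (limma, adjusted p = 0.105). Leaving out 1 array at a time gave −1.05 to −0.68. Its second probe set gave 6.35, 5.65 and 5.70 in long-term EMT cells, against 6.59, 6.77 and 6.89 in control cells, a difference of −0.85 (SE 0.20, limma, adjusted p = 0.118), so that both probe sets of the gene read the same way.

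Pcdh7, which joins breast cancer cells to astrocytes in models of human brain metastasis, was well above background on all 6 arrays. Its values were 10.11, 9.89 and 9.83 in long-term EMT cells, against 9.70, 9.51 and 8.93 in control cells, and the groups did not overlap. The difference of 0.56 (SE 0.21, 95% interval 0.06 to 1.06) did not pass (limma, adjusted p = 0.303). Control replicate 3 was the lowest array, and the difference was 0.34 when it was left out and 0.72 when control replicate 1 was. Pcdh1, a protein of airway epithelium and a hantavirus receptor in humans, had values of 6.79, 6.71 and 6.60 in long-term EMT cells, against 6.80, 6.64 and 6.89 in control cells. Its groups overlapped, with a difference of −0.08 (95% interval −0.31 to 0.16). Pcdh11x, an X-linked neuronal member, lay below background on every array, with values of 3.73 to 3.90 in long-term EMT cells and 3.67 to 3.84 in control cells.

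The delta-2 protocadherins (Pcdh8, Pcdh10, Pcdh17, Pcdh18 and Pcdh19) have a shorter ectodomain, and several of them bind the WAVE actin regulatory complex through the tail. Pcdh18, which binds the adaptor Dab1, was the most variable member. Its values were 7.60, 7.24 and 7.65 in long-term EMT cells, against 6.63, 7.82 and 8.56 in control cells, so that the control arrays spanned both sides of the long-term EMT arrays. The difference was −0.17 with an interval of −1.29 to 0.95, leaving out control replicate 1 gave −0.69, leaving out control replicate 3 gave 0.27, and no direction can be given.

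Pcdh19, mutated in a human epilepsy, had values of 7.71, 8.19 and 8.24 in long-term EMT cells, against 7.73, 7.82 and 7.91 in control cells. Long-term EMT replicates 2 and 3 were above every control and replicate 1 below them, and the difference of 0.23 (95% interval −0.15 to 0.60) did not pass (limma, adjusted p = 0.633). Pcdh17, which acts at synapses and in axon growth, had values of 4.74, 5.15 and 4.88 in long-term EMT cells, against 4.72, 4.71 and 4.74 in control cells. Its control arrays were within 0.03 of each other, and the highest of them equalled the lowest long-term EMT array. The difference was 0.20 (SE 0.12, limma, adjusted p = 0.557). Pcdh10, which recruits the WAVE complex to cell contacts, averaged 4.33 in long-term EMT cells and 4.29 in control cells, below background. Pcdh8, a synaptic member, had a difference of −0.07 on the probe set used and 0.12 on its second one, so that its 2 probe sets differed in sign, both below background.

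The remaining members, Pcdh12, Pcdh15 and Pcdh20, were taken singly. Pcdh12, an adhesion protein of endothelial junctions, had values of 5.25, 5.12 and 5.24 in long-term EMT cells, against 5.17, 5.19 and 5.31 in control cells, with overlapping groups and a difference of −0.02 (95% interval −0.22 to 0.18). Among the endothelial markers, Cdh5 was higher in long-term EMT cells (2.49, limma, adjusted p = 0.0232, passing in 2 of 6 fits that left out 1 array), while Pecam1, Kdr, Tek and Emcn were below background in both groups. Esam averaged 4.62 in long-term EMT cells, above background, and 4.42 in control cells, below it, and it did not pass (limma, adjusted p = 0.562). The summed level of the 6 endothelial markers was 7.49 to 8.36 in long-term EMT cells and 6.73 to 6.80 in control cells on the log2 scale (6.73 to 6.79 without control replicate 1). Pcdh15, which forms the tip link of hair cells with Cdh23, averaged 3.99 in long-term EMT cells and 3.94 in control cells, below background. Cdh23 itself, chosen after its values were seen, had values of 5.73, 6.01 and 5.73 in long-term EMT cells, against 5.33, 4.99 and 4.96 in control cells. These groups did not overlap, and the difference of 0.73 (SE 0.14) did not pass (limma, adjusted p = 0.0595). The study lists Cdh5 and Cdh23 among its upregulated genes on these same samples. Pcdh20, a gene often silenced by methylation in human tumours, had values of 4.69, 3.95 and 3.98 in long-term EMT cells, against 4.21, 3.88 and 4.04 in control cells, and 1 long-term EMT array alone was above background.

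The beta protocadherins are encoded by single-exon genes that resemble each other closely, so that their probe sets may share signal and single genes of the cluster are uncertain. Pcdhb18 and Pcdhb21 are separate genes with a probe set each, and the RefSeq table also lists Pcdhb18 as an older name of Pcdhb21. Pcdhb18 had values of 4.27, 4.60 and 4.64 in long-term EMT cells, against 3.65, 3.89 and 3.85 in control cells. Every long-term EMT value was above every control value, yet all 3 controls and 1 long-term EMT array were under the background level. The difference of 0.71 (SE 0.13, fold 1.63) missed the threshold (limma, adjusted p = 0.0537), and it passed at 0.0437 where dim probe sets were left out, at 0.0453 with a trended and robust prior and at 0.0465 with a replicate block. Leaving out 1 array at a time gave 0.63 to 0.82, none of them passing.

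The other beta genes above background differed less. Pcdhb22 had values of 5.84, 5.78 and 5.65 in long-term EMT cells, against 5.53, 5.58 and 5.57 in control cells, without overlap and with a difference of 0.20 (SE 0.08, limma, adjusted p = 0.365). Pcdhb15 had values of 5.04, 5.24 and 4.95 in long-term EMT cells, against 4.87, 4.94 and 4.83 in control cells, a difference of 0.20 (limma, adjusted p = 0.478). The lowest long-term EMT value of Pcdhb15 lay just above the highest control value. Pcdhb17 had values of 4.58, 5.16 and 4.86 in long-term EMT cells, against 4.60, 4.46 and 4.54 in control cells, and its difference of 0.33 (95% interval −0.03 to 0.70) drew on long-term EMT replicates 2 and 3. Pcdhb16 differed by 0.19, Pcdhb19 by 0.04 and Pcdhb14 by −0.04, each within 0.2 of 0 and with overlapping groups.

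Below background, Pcdhb2, Pcdhb12 and Pcdhb20 also had long-term EMT values wholly above the control values, by 0.22, 0.09 and 0.16 between the means. Pcdhb6 had 1 array above background, control replicate 3 at 4.79, with the other 5 between 4.13 and 4.37. The shared alpha probe set had values of 4.12, 4.12 and 4.25 in long-term EMT cells, against 4.31, 4.11 and 4.20 in control cells, below background, with a difference of −0.04 (limma, adjusted p = 0.901).

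Read in numbered order, the beta genes formed 2 stretches, a split made after the values were seen and given without a test. In Pcdhb15 to Pcdhb22 all 8 genes were higher in long-term EMT cells, by 0.04 to 0.71 with a median of 0.20, while 55.4% of all probe sets were higher. The split was placed by these same values, so that this count follows from it. Without control replicate 3, 7 of the 8 were higher. In at least 1 group, 6 of the 8 were above background. The median offset of these 8 genes from the control mean was 0.128, 0.295 and 0.193 on the 3 long-term EMT arrays, against −0.002, 0.033 and −0.038 on the 3 control arrays. In Pcdhb1 to Pcdhb14 the median was −0.02, with 5 genes higher, 8 lower and 1 equal, and 1 of the 14 was above background. Leaving out 1 array at a time moved the first median between 0.17 and 0.24 and the second between −0.04 and 0.01. The stretches differ in how much of them lay above background, and the second median changed sign between those fits.

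**Figure D3:**
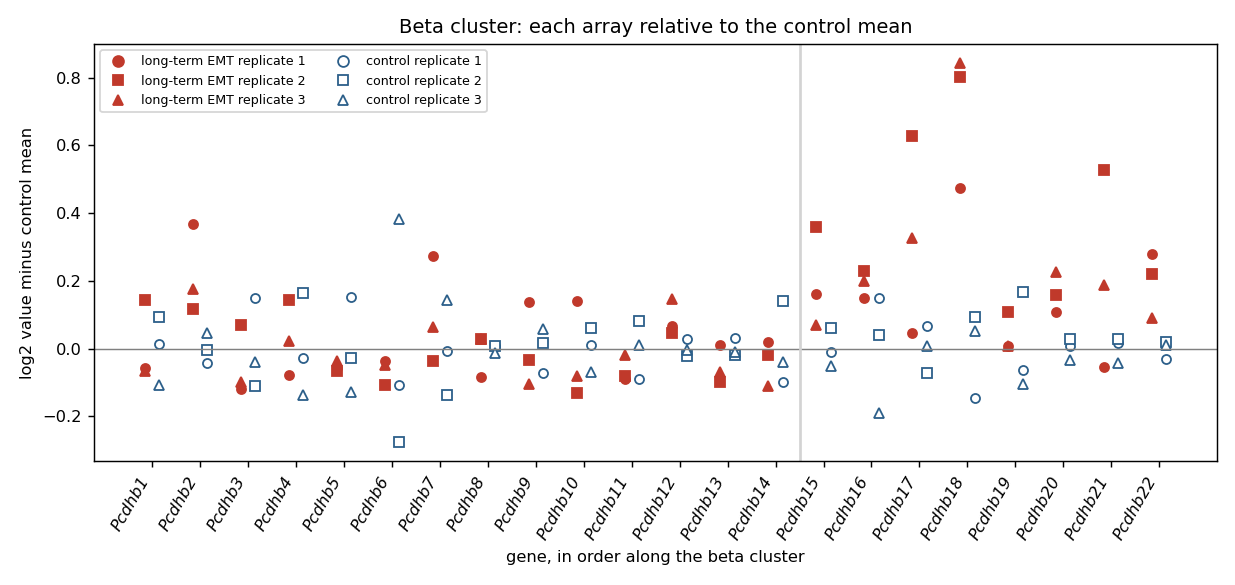
Offset from the control mean (log2, y axis) of each beta gene in numbered order (x axis) on the 3 long-term EMT and 3 control arrays. Pcdhb15 to Pcdhb22 all have a higher long-term EMT mean, led by Pcdhb18 at 0.71, and Pcdhb1 to Pcdhb14 scatter around 0. The split was made after the values were seen.

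Genes that work with protocadherins were read from 5 lists, and of all probe sets 0.993% rose and 0.928% fell. CTCF and the cohesin subunits and loaders, which pick the active promoter in the clusters, were all above background in both groups (11 of 11), and 0 rose and 0 fell, with a median difference of 0.03 and with Ctcf at 9.42 in long-term EMT cells and 9.56 in control cells. The DNA methyltransferases and silencers, among them Smchd1, which represses clustered protocadherins, gave 0 of 9 in either direction with a median of −0.04. The γ-secretase subunits and Adam10, which cleave protocadherins at the membrane, gave 0 of 5 in either direction with a median of −0.19.

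The cytoplasmic partners held 2 genes that rose among 12 read, both tyrosine kinases, while 0.993% of all probe sets rose. Ptk2b, the focal adhesion kinase relative Pyk2 that clustered protocadherins inhibit, had values of 9.57, 9.55 and 9.61 in long-term EMT cells, against 8.69, 8.64 and 8.79 in control cells, a difference of 0.87 (SE 0.08, fold 1.83, limma, adjusted p = 0.00582). It passed in 6 of 6 fits that left out 1 array. Fyn, a Src family kinase that binds protocadherin alpha proteins, had values of 9.61, 9.30 and 9.53 in long-term EMT cells, against 8.57, 8.54 and 8.86 in control cells, a difference of 0.82 (SE 0.13, fold 1.77, limma, adjusted p = 0.0330), and it passed in 1 of those 6 fits, the one without control replicate 3 (adjusted p of 0.0356 to 0.143 over the 6). With the replicate block Fyn did not pass (limma, adjusted p = 0.0558). For both kinases every long-term EMT array was above every control array. The study lists Fyn among its induced genes on these same samples, so that its direction is not independent evidence. The other 10 partners, among them Rac1, the WAVE subunits and Ppp1ca, did not pass.

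Among 13 other long or atypical cadherins 1 fell and 0 rose, while 0.928% of all probe sets fell and 0.993% rose. Celsr1, a planar cell polarity cadherin of epithelium, had values of 6.77, 6.54 and 6.56 in long-term EMT cells, against 8.63, 8.10 and 7.81 in control cells. Every long-term EMT array was below every control array, and the difference was −1.56 (SE 0.21, 2.94-fold lower, limma, adjusted p = 0.0215), which passed in 2 of 6 fits that left out 1 array, those without control replicate 1 and without control replicate 3 (adjusted p of 0.0089 to 0.114 over the 6). The study lists Celsr1 among its downregulated genes on these same samples, so that its direction is not independent evidence. The Fat and Dchs cadherins that were read did not pass.

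**Figure D4:**
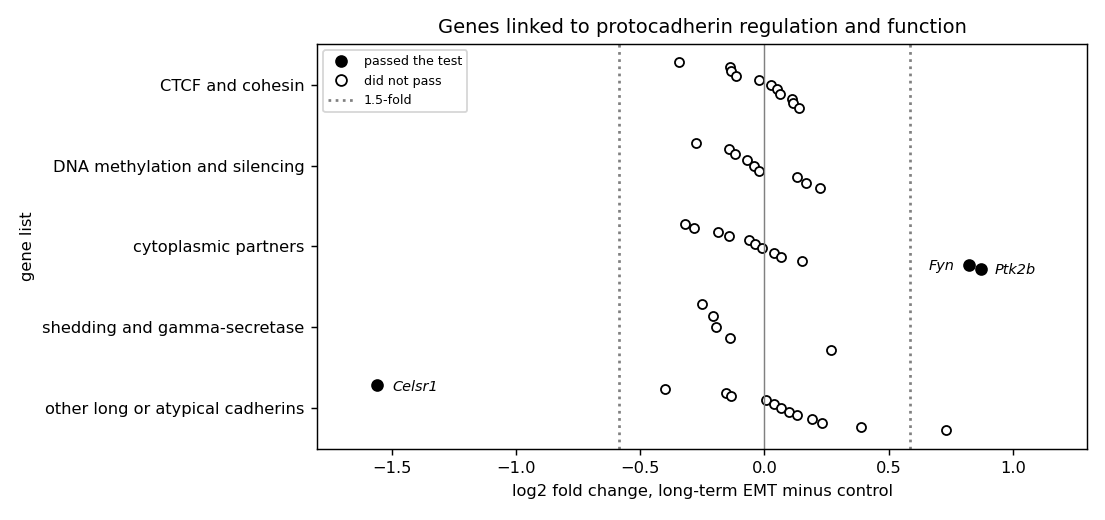
Log2 fold change (long-term EMT minus control, x axis) of the genes of 5 lists linked to protocadherins (rows), each point 1 gene, filled where it passed the test. Fyn (0.82) and Ptk2b (0.87) are the filled points above the 1.5-fold line, and Celsr1 (−1.56) is the one below it.

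Protocadherins are best known from neurons, and neural markers were read for that reason. Of 7 markers, 5 were above background in each group, 0 rose and 1 fell (Map2, −2.55, limma, adjusted p = 0.0347, passing in 2 of 6 fits that left out 1 array). The summed level of the 7 was 7.76 to 8.11 in long-term EMT cells and 8.96 to 10.13 in control cells (8.96 to 9.22 without control replicate 1). Of the 7, 5 had a higher mean in long-term EMT cells, and the median difference was 0.05. Map2 and Syt1 (−0.01) had a lower mean. The other markers above background, Snap25, Rbfox3, Gfap and Sox10, averaged between 4.59 and 4.91 in both groups. These means lay under 5.09, the 99th percentile of the olfactory receptor probe sets. Fibroblast markers (7 read, 0 passing in limma) had a summed level of 9.53 to 9.92 in long-term EMT cells and 10.33 to 10.86 in control cells (10.33 to 10.71 without control replicate 1). By sign, 4 of the 7 had a higher mean in long-term EMT cells, among them Col1a1 (0.62), and 3 a lower one, Pdgfra (−0.95), Pdgfrb (−1.31) and Dcn (−1.76), with a median of 0.04. Leukocyte markers (5 read, 0 passing in limma) had a summed level of 8.61 to 9.11 in long-term EMT cells and 9.0 to 10.65 in control cells (9.0 to 9.68 without control replicate 1). Cd14 (−1.12) was the 1 marker of the 5 with a lower mean in long-term EMT cells, and the median was 0.04. All samples were of 1 cell line, and a link between these markers and the protocadherin values was not tested.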

How the data were processed

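RNA of 3 long-term EMT and 3 control samples was hybridised to 1 array each. The authors summarised the arrays with RMA in Affymetrix Expression Console (version not given in the sources used here) and deposited log2 values with 2 decimals, which were used without further normalization. RMA shrinks differences of dim probe sets. limma 3.58.1 (R 4.3.3) was fitted to all 35556 probe sets without a filter or covariates, with Benjamini-Hochberg adjustment. No counts exist, so that the number of arrays limits the precision. Probe sets with several symbols entered the fit but were not members. GRCm38.p6 RefSeq tables gave gene order and promoter windows, and sequence of chromosome 18 is not shown. Named were all non-clustered genes, clustered genes above background (at most 15), Pcdhb18 and Pcdh9, and at most 4 passing genes per list; others were named after their values were seen. Members and lists were chosen with earlier results of these data known. Alternatives changed the variance prior, test, normalization, background percentile, filter, replicate block and arrays. The fit was checked on simulated data.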

Additional observations from a re-analysis of the deposited data

How the results depend on the processing

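Of the protocadherin genes 0 passed in the reported limma fit, and the count of members higher in long-term EMT cells became 1 (Pcdhb18) with a trended and robust prior (limma, adjusted p = 0.0453), with dim probe sets left out (0.0437), with the replicate block (0.0465), by the methods' t-test without adjustment and, chosen after seeing the data, at an unadjusted limma p. The count lower became 1 (Pcdh9) under the last 2 of these. The methods' t-test called 638 probe sets higher and 688 lower without adjustment, and 43 and 26 with it, with 0 members among the 43 and 26. Leaving out 1 array gave 107 to 472 higher, 98 to 482 lower and 0 to 0 members, with adjusted p for Pcdhb18 between 0.0516 and 0.216 and for Pcdh9 between 0.0561 and 0.299. With the 99th percentile as background, 7 members were above it in long-term EMT cells and 7 in control cells, with the 90th percentile 17 and 16, and leaving out arrays gave 13 to 14 and 11 to 12, with 19 to 21 at background in both. The median difference was 0.012 after another quantile normalization, 0.012 with equal array medians, 0.195 without members at background and 0.026 to 0.068 without 1 array. Over the same fits Pcdhb14 lay between −0.087 and 0.033, Pcdhb19 between −0.012 and 0.123, Pcdh10 between −0.038 and 0.108, Pcdh12 between −0.047 and 0.023, Pcdh18 between −0.693 and 0.272 and Pcdh20 between −0.078 and 0.292, each taking both signs and never passing. Fyn and Celsr1 lost their call under the adjusted t-test (0.154 and 0.145). Ptk2b kept its call under every alternative fit, each read at a fold above 1.5. Its fold of 1.83 would not pass a threshold of 2. The causes were not tested. Samples of the same number correlated at 0.188, 0.02 and 0.249 in their deviations, and samples of different numbers at −0.267 to 0.142. With 3 samples a group these values cannot settle whether the numbers pair the samples. The replicate block gave 256 probe sets higher and 278 lower. Of 19 named members, 17 passed under none of the alternatives. With 3 arrays a group, an exact test of 1 gene cannot go below p = 0.1.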
